A study of Spodoptera frugiperda with 3 samples.

Results

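The unigenes described here stood higher upon overexpression of Sf-15 than upon its repression. They were chosen by the measured values of all 3 libraries. With a for the log2 ratio of ASO to Sf9 and b for the log2 ratio of Sf-15 to Sf9, each after 1 FPKM was added, a member had b minus a of at least 0.7, a under 1 and b over -1.2. FPKM divides the fragments of a unigene by its length in kilobases and by the mapped fragments of the library in M (mega). At least 30 raw fragments were required in 1 of the libraries, and contigs of CL clusters were left out, so that each member is a unigene that the assembly kept apart. The rule was met by 237 of the 42041 unigenes, which is 1.25% of the 18999 single unigenes with 30 fragments or more. Since the rule used each of the contrasts, the values of the members are given as a description and none of them was tested.

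Sf9 is a continuous ovarian cell line of the fall armyworm *Spodoptera frugiperda*. The Sf-15 library came from Sf9 cells transfected with 2 μg of a plasmid that transcribes the snoRNA from an *actinA3* promoter and also carries EGFP (Bm-15 overexpression in the sample labels). The ASO library came from Sf9 cells transfected with an antisense oligonucleotide of the snoRNA (Bm-15 repression in the labels). The labelled dose of the ASO library was also 2 μg. The published methods state the oligonucleotide as a concentration instead, so its dose is uncertain. The Sf9 library came from normal cells. The time between transfection and harvest is not given for these libraries. The cells were at passage 15 to 18, and Sf9 was not transfected, so Sf-15 level and transfection cannot be told apart against Sf9, nor can plasmid, oligonucleotide and Sf-15 level between the transfected libraries. Each condition had 1 library, so there is no replicate check and no p-value, and the exact 95% intervals given with the fragments cover counting error only.

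Sf-15 belongs to the C/D box small nucleolar RNAs, which pair with ribosomal and small nuclear RNAs and guide the methylation of a ribose in them by the enzyme fibrillarin. Some snoRNAs are also known to act on messenger RNAs. An antisense oligonucleotide of the gapmer type works in the nucleus, where RNase H cuts the RNA strand that the oligonucleotide has paired with. The unigenes carry assembly names only, and 0 names matched the RefSeq gene table of *S. frugiperda*. The columns of the supplementary lists used here hold no annotation either. No gene name, function or sequence can therefore be attached to a member, and neither Sf-15 itself nor markers of the ovarian cell line could be checked. In RNA from bulk cultures, fewer cells of a kind and less RNA per cell cannot be told apart.

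The library totals were 18.0 M fragments in Sf-15, 19.7 M in ASO and 19.6 M in Sf9. The contigs of 1 cluster, CL1590, took 21.1% of the fragments of Sf-15, 13.5% of ASO and 2.01% of Sf9, and the FPKM of every unigene is relative to a total that includes them. Over the 18999 single unigenes with 30 fragments or more, the median of b was -0.26 and the median of a was -0.04. With TMM scaling, every b was raised by 0.25 and every a was changed by -0.03 before the FPKM was added. The rule then took in 641 unigenes, among them all 237.

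The members were followed in both arms. A member was called higher or lower in a transfected library when its log2 ratio to Sf9 was 0.5 or more in size and the exact interval of the ratio of fragments left out no difference. By this call 66 of the 237 members were higher in Sf-15 than in Sf9, against 3.68% of the single unigenes with 30 fragments or more. More of them, 149, were lower in ASO than in Sf9, against 17.3% of the same unigenes. Both shares follow from the way the members were chosen, and nothing is read from them. The interval of the ratio of Sf-15 to ASO was above no difference for 223 members, and for 6.04% of the unigenes. This too follows from the rule, and nothing is read from it.

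The calls sorted the members into 6 classes. The largest held 123 members that were lower in ASO only (4.67% of the single unigenes with 30 fragments or more were in this class), and the next held 52 members that were higher in Sf-15 only (0.953%). Another 23 were lower in both transfected libraries, and less so in Sf-15 by the measured ratios, though not beyond counting error for all of them (12.6%). A further 11 were higher in both, and more so in Sf-15 (2.72%). Only 3 members were called in opposite directions, higher in Sf-15 and lower in ASO (0.0158%, the same 3 unigenes). The remaining 25 were past the limits in neither library (54.7%). With the 237 members held, the count of opposite calls was 8 with TMM scaling, 9 with median-of-ratios scaling and 5 when the library totals left out CL1590. The class of 37, 37 and 61 members changed under these scalings in the same order.

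In signs alone, 87 members had b above 0 and a below 0, 114 had both below 0, and 36 had both at 0 or above. The FPKM was highest in Sf-15 for 123 members and highest in Sf9 for 114. Over the single unigenes with 30 fragments or more it was highest in Sf-15 for 7.88%, in ASO for 42.6% and in Sf9 for 49.5%. A member cannot be highest in ASO, since the rule sets Sf-15 above ASO. ASO held the lowest FPKM of 201 members, which are those with a below 0. With TMM scaling every b is raised by 0.25 before the FPKM is added, so that b values just under 0 change sign. The shares of the signs and of the lowest library over all single unigenes were not computed. Nothing is read from these counts.

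**Figure D1:**
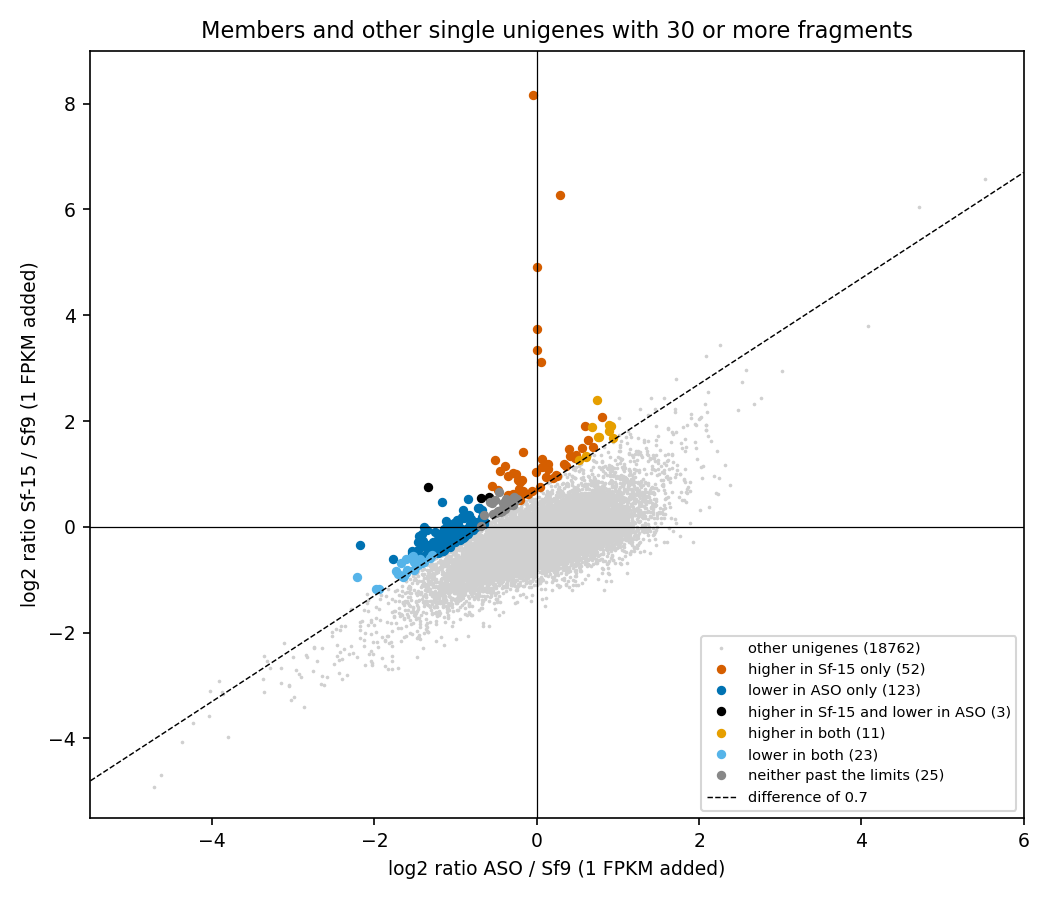
Log2 ratio of Sf-15 to Sf9 (vertical axis) against log2 ratio of ASO to Sf9 (horizontal axis), both after adding 1 FPKM, for the 18999 single unigenes with 30 fragments or more, 1 point each. Grey points are not members, colours give the class, and the dashed line is the limit of 0.7; grey points above it miss another limit of the rule. The 123 members lower in ASO only lie left of 0 near the line, and Unigene30391 stands at the top with 8.16.

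Unigene30391 (1439 nt) had the largest difference of all members. It had 8444 fragments in Sf-15, 3 in ASO and 4 in Sf9, which is 326 FPKM in Sf-15, 0.106 in ASO and 0.142 in Sf9. The log2 ratio of its fragments in Sf-15 to those in ASO had an exact 95% interval of 10.04 to 13.87, and that of Sf-15 to Sf9 was 11.16 (9.81 to 13.04). Its level in the ASO library lay within the counting error of that in Sf9 (interval of the log2 ratio -3.20 to 2.14). It was thus high in Sf-15 only and close to 0 in both other libraries.

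The unigenes with the following assembly numbers had the same pattern at lower levels. Unigene30392 (234 nt) had 322 fragments in Sf-15, 1 in ASO and 0 in Sf9, and Unigene30393 (479 nt) had 250 in Sf-15 and 0 in both ASO and Sf9. Counting 0 fragments as up to 3, Unigene30392 was at least 117-fold higher in Sf-15 than in Sf9, and Unigene30393 was at least 91.3-fold higher in Sf-15 than in ASO and at least 90.6-fold higher than in Sf9. Against the single fragment of ASO, the interval of the log2 ratio of Unigene30392 was 5.98 to 13.77. Unigene30205 (1243 nt) had 173 fragments in Sf-15, 1 in ASO and 0 in Sf9, at least 62.7-fold more in Sf-15 than in Sf9.

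Other members with fewer fragments likewise had 0 fragments in Sf9. Unigene30191 (212 nt) had 47 fragments in Sf-15 and 0 in both ASO and Sf9, at least 17.0-fold more in Sf-15 than in Sf9. Unigene30568 (311 nt) had 51 fragments in Sf-15 and 0 in the others, at least 18.5-fold more in Sf-15 than in Sf9. Unigene30423 (532 nt) differed from these in that ASO had some of it as well, with 41 fragments in Sf-15, 7 in ASO and 0 in Sf9, at least 14.9-fold more in Sf-15 than in Sf9. Transcripts of the plasmid and transcripts of the cells cannot be told apart for these unigenes, since their sequences were not analysed here.

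In all, 7 members had 3 fragments or fewer in ASO or Sf9. Without them, the largest b of the remaining 230 members was 2.08, against 8.16 with them, and the largest difference was 2.09, against 8.21. The medians moved little, with 0.02 for b, -0.89 for a and 0.85 for the difference, against 0.03, -0.86 and 0.86 over all 237. The largest values of the whole set thus came from these 7 members.

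**Figure D2:**
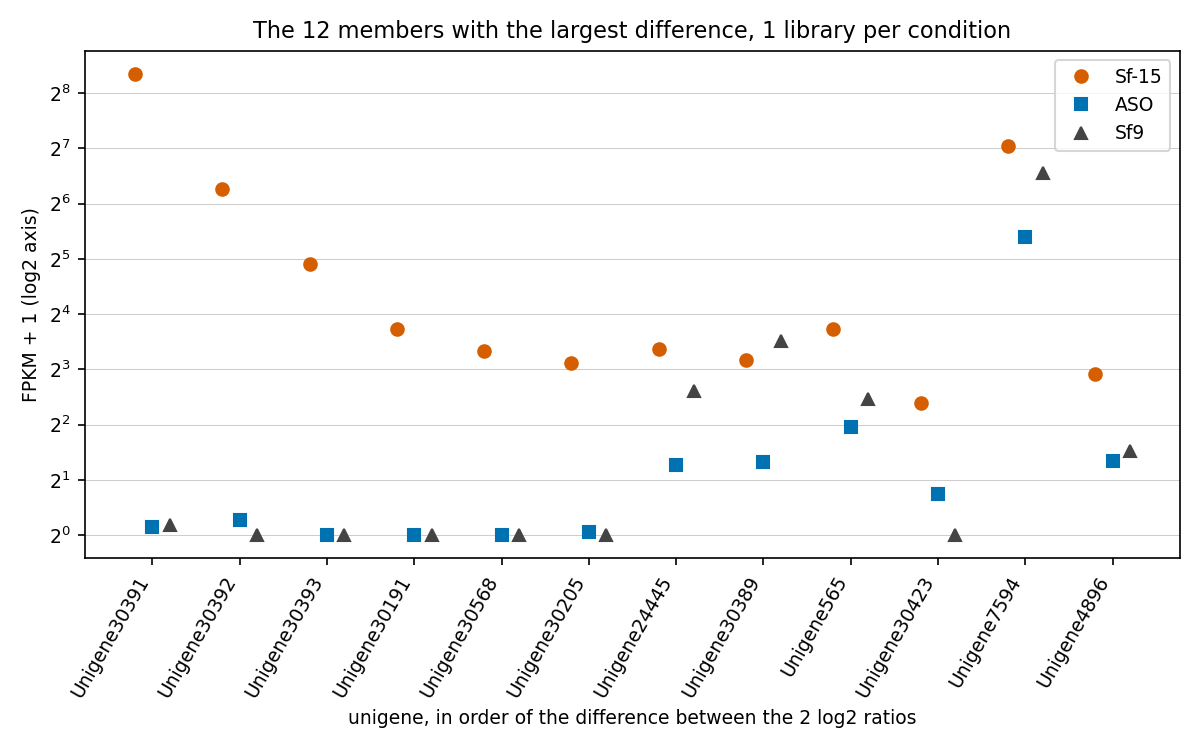
FPKM plus 1 on a log2 axis in the Sf-15, ASO and Sf9 libraries for the 12 members with the largest difference between the log2 ratios, 1 point per library. For the first 6 unigenes only the Sf-15 point leaves the bottom of the plot. Of the rest, all but Unigene30423 have their ASO point below both others.

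Apart from these, the rise with the plasmid was measured most precisely in abundant members. Unigene6942 (848 nt) had 6205 fragments in Sf-15, 3829 in ASO and 2740 in Sf9, or 406 FPKM in Sf-15, 229 in ASO and 165 in Sf9. It was 2.46-fold higher in Sf-15 than in Sf9 (interval of the log2 ratio 1.24 to 1.36), while its log2 ratio of ASO to Sf9 after adding 1 FPKM, 0.47, stayed just under the limit of 0.5. With totals that left out CL1590 it was 0.65, and Unigene6942 was then higher in both. Unigene1843 (740 nt) stood nearer to Sf9 in ASO. Its fragments were 3215 in Sf-15, 1683 in ASO and 1520 in Sf9, which is 2.30-fold higher in Sf-15 than in Sf9 and 1.10-fold higher in ASO than in Sf9.

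Unigene7593 (822 nt) was higher in Sf-15, and in ASO it was not past the limit. It had 2186 fragments in Sf-15, 1329 in ASO and 1574 in Sf9, with log2 ratios after adding 1 FPKM of 0.59 for Sf-15 and -0.25 for ASO. The interval of its ratio in ASO, -0.36 to -0.15, lay below 0, but the size was under the limit. Its neighbour in number, Unigene7594 (322 nt), fell in ASO instead, and is described with that class.

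At lower depth the same class held Unigene565 (441 nt), with 97 fragments in Sf-15, 25 in ASO and 39 in Sf9. Its log2 ratio of Sf-15 to Sf9 after adding 1 FPKM was 1.26, and the interval of its ratio of ASO to Sf9 (-1.44 to 0.11) took in no difference. Unigene4896 (328 nt) had 39 fragments in Sf-15, 10 in ASO and 12 in Sf9, with a log2 ratio of Sf-15 to Sf9 of 1.41. Over the 52 members that were higher in Sf-15 only, b ran between 0.51 and 8.16 with a median of 1.03, and a ran between -0.55 and 0.80 with a median of -0.03. The median level in this class was 6.98 FPKM in Sf-15, 2.53 in ASO and 2.80 in Sf9.

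The 123 members that were lower in ASO only had a median a of -1.08 (-2.18 to -0.64) and a median b of -0.15 (-0.65 to 0.53). Their median level was 5.24 FPKM in Sf-15, 2.35 in ASO and 6.24 in Sf9, so that Sf-15 stood near Sf9 and ASO stood apart. Unigene7594 had the largest count of them in a single library, 760 fragments in Sf-15. It had 262 in ASO and 591 in Sf9, or 131 FPKM in Sf-15, 41.2 in ASO and 93.7 in Sf9. It stood at 0.44-fold of Sf9 in ASO (interval of the log2 ratio -1.40 to -0.97). In Sf-15 it stood at 1.40-fold of Sf9, with an interval of the log2 ratio above no difference (0.33 to 0.64). The log2 ratio after adding 1 FPKM, 0.48, was under the limit of 0.5. Its log2 ratio of Sf-15 to Sf9 was 0.73 with TMM scaling, 0.71 with median-of-ratios scaling and 0.79 with totals that left out CL1590, and under each of these it was higher in Sf-15 and lower in ASO.

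After adding 1 FPKM, the member of this class that fell the most in ASO was Unigene30389 (201 nt), with 29 fragments in Sf-15, 6 in ASO and 41 in Sf9. Its log2 ratio of ASO to Sf9 was -2.18 after adding 1 FPKM, and the interval of its ratio of Sf-15 to Sf9 was -1.12 to 0.34. Unigene19368 (429 nt) had 18 fragments in Sf-15, 4 in ASO and 34 in Sf9, and a log2 ratio of ASO to Sf9 of -1.78. By the plain ratio Unigene19368 fell further, to 0.12-fold of Sf9 in ASO, against 0.15-fold for Unigene30389. These few fragments leave wide intervals, -5.06 to -1.61 for ASO to Sf9 in Unigene19368. Unigene21916 (342 nt) had 32 fragments in Sf-15, 13 in ASO and 50 in Sf9, and Unigene24914 (462 nt) had 17 in Sf-15, 5 in ASO and 30 in Sf9.

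Unigene21140 (624 nt) was better covered, with 244 fragments in Sf-15, 123 in ASO and 379 in Sf9. Its log2 ratio of ASO to Sf9 after adding 1 FPKM was -1.54 (interval of the plain ratio -1.94 to -1.34). Its level in Sf-15 was also below Sf9 (interval -0.75 to -0.28), with a log2 ratio of -0.50 that just missed the limit. With TMM scaling its log2 ratio of Sf-15 to Sf9 was -0.26.

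At the deposited scaling, 3 members rose with the plasmid and also fell with the oligonucleotide. The 3 stayed in this class with TMM and with median-of-ratios scaling, but with totals that left out CL1590 only Unigene24445 did, and Unigene5530 and Unigene24329 were then higher in Sf-15 only. Unigene5530 (454 nt) had 821 fragments in Sf-15, 397 in ASO and 597 in Sf9, or 100.4 FPKM in Sf-15, 44.3 in ASO and 67.1 in Sf9. Its log2 ratios after adding 1 FPKM were 0.57 for Sf-15 to Sf9 and -0.59 for ASO to Sf9, with intervals of 0.43 to 0.74 and -0.79 to -0.42. They were 0.82 and -0.62 with TMM scaling, and 0.88 and -0.41 with totals that left out CL1590. Unigene5530 is the only one of the 3 with over 100 fragments in a library.

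Unigene24445 (250 nt) had 42 fragments in Sf-15, 7 in ASO and 25 in Sf9. Its log2 ratio was 0.76 for Sf-15 to Sf9 and -1.34 for ASO to Sf9, so its fall in ASO was larger than its rise in Sf-15. Unigene24329 (438 nt) had 53 fragments in Sf-15, 20 in ASO and 37 in Sf9, and the interval of its ratio of Sf-15 to Sf9, 0.01 to 1.29, only just left out no difference.

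The 11 members that were higher in both libraries rose further with the plasmid. Their median b was 1.70 and their median a was 0.76. Unigene4447 (755 nt) had the most fragments, 1909 in Sf-15, 1088 in ASO and 630 in Sf9, which is 3.29-fold higher in Sf-15 than in Sf9 and 1.71-fold higher in ASO than in Sf9. Unigene4113 (892 nt) had 896 fragments in Sf-15, 483 in ASO and 246 in Sf9, which is 3.96-fold higher in Sf-15 and 1.95-fold higher in ASO than in Sf9. In Unigene5756 (1544 nt) the fragments were 510 in Sf-15, 280 in ASO and 136 in Sf9.

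Smaller counts gave the same order. Unigene698 (382 nt) had 117 fragments in Sf-15, 59 in ASO and 28 in Sf9, and Unigene8764 (444 nt) had 69 in Sf-15, 28 in ASO and 14 in Sf9. The longest member of all, Unigene14924 (2877 nt), was in this class, with 324 fragments in Sf-15, 190 in ASO and 114 in Sf9. With TMM or median-of-ratios scaling, Unigene8764 and Unigene14924 were higher in Sf-15 only.

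The 23 members that were lower in both libraries had a median b of -0.72 and a median a of -1.54. They include the most abundant member, Unigene2892 (298 nt), with 7788 fragments in Sf-15, 5155 in ASO and 13611 in Sf9, or 1451 FPKM in Sf-15, 876 in ASO and 2332 in Sf9. It stood at 0.62-fold of Sf9 in Sf-15 (interval of the log2 ratio -0.72 to -0.64) and at 0.38-fold in ASO (-1.46 to -1.37). Its log2 ratio of Sf-15 to Sf9 after adding 1 FPKM was -0.68, against -0.44 with TMM scaling, -0.45 with median-of-ratios scaling and -0.37 with totals that left out CL1590, and under each of these it was lower in ASO only. This unigene alone had more fragments in Sf9 than any other member had in any library.

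By the log2 ratio after adding 1 FPKM, -2.22, Unigene16980 (295 nt) fell the most in ASO of all members. It had 25 fragments in Sf-15, 8 in ASO and 58 in Sf9. By the plain ratio Unigene19368 fell further, to 0.12-fold of Sf9 in ASO, against 0.14-fold for Unigene16980. Unigene3370 (502 nt) had 67 fragments in Sf-15, 35 in ASO and 138 in Sf9. Unigene9760 (205 nt) had 22 in Sf-15, 12 in ASO and 59 in Sf9, and the interval of its ratio of Sf-15 to ASO, -0.07 to 2.15, took in no difference. The same held for Unigene25011, Unigene25360, Unigene11936, Unigene8752 and Unigene25998 of this class. Unigene25846 (226 nt) had 28 in Sf-15, 16 in ASO and 74 in Sf9, and Unigene17896 (358 nt) had 31 in Sf-15, 16 in ASO and 68 in Sf9.

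The 25 members past the limits in neither library had a b above 0 and an a below 0 that added up to the limit of the rule. Their median b was 0.41 and their median a was -0.43. The 5 with the largest difference were Unigene15903, Unigene23112, Unigene10991, Unigene14820 and Unigene9799, with 30 to 38 fragments in Sf-15, 12 to 17 in ASO and 19 to 27 in Sf9. For Unigene15903 (330 nt; 31 in Sf-15, 12 in ASO and 19 in Sf9) the interval was -0.04 to 1.73 for Sf-15 to Sf9 and -1.85 to 0.44 for ASO to Sf9. At the deposited scaling and this depth, neither transfected library could be set apart from Sf9 for these 5. Under each of the other scalings Unigene15903, Unigene10991 and Unigene9799 were higher in Sf-15 only, and so was Unigene23112 with TMM scaling and with totals that left out CL1590.

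**Figure D3:**
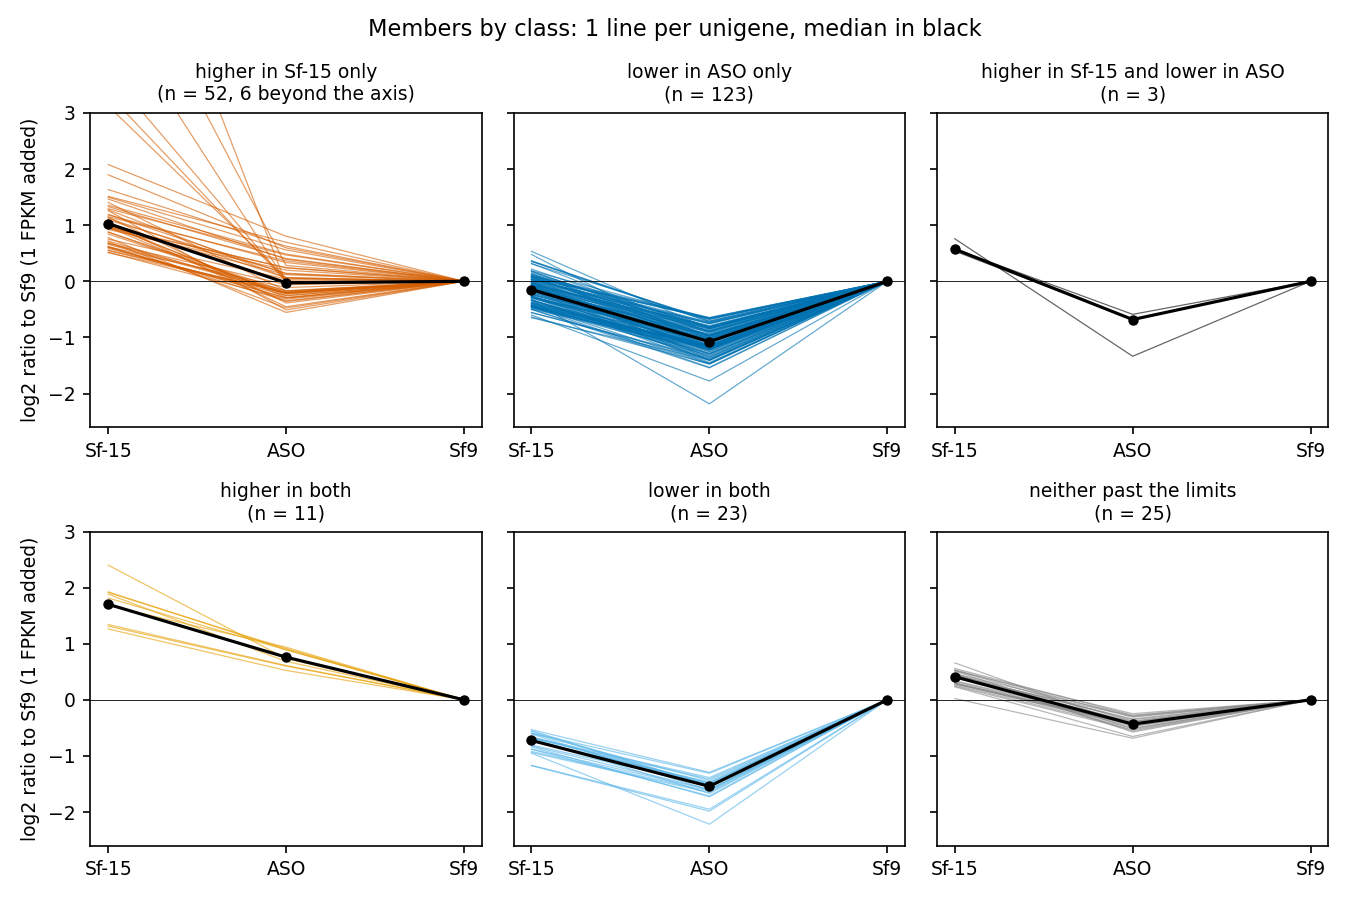
Log2 ratio to Sf9 after adding 1 FPKM in Sf-15, ASO and Sf9 (0 by definition) for the members of each class, 1 thin line per unigene and the class median in black. In the class lower in ASO only the black line dips to -1.08 at ASO and lies at -0.15 at Sf-15, and in the class higher in Sf-15 only it stands at 1.03 at Sf-15 and -0.03 at ASO, with 6 lines that leave the axis.

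Most members were short and had few fragments. Their median length was 406 nt, against 669 nt over the single unigenes with 30 fragments or more, and 164 of the 237 were under 500 nt. The rule bears on length. At equal fragments a longer unigene has a lower FPKM, and the added 1 FPKM then shrinks its ratios more. How far this sets the length of the members was not tested. The median of the largest fragment count was 49, against 122. For 173 members the highest FPKM of the 3 libraries was under 10, and 12 were above 50 FPKM in a library.

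The share of unigenes that met the rule fell with depth. It was 2.19% at 30 to 99 fragments in the library with the most (185 of 8465), 0.581% at 100 to under 1000 (46 of 7920) and 0.23% at 1000 or more (6 of 2614). The median width of the interval of the log2 ratio of Sf-15 to ASO was 1.75, 0.85 and 0.19 in the same order. Below 1000 fragments the median interval was thus wider than the limit of 0.7 itself. The 6 members with 1000 fragments or more were Unigene30391, Unigene2892, Unigene6942, Unigene1843, Unigene7593 and Unigene4447.

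Of the 52 members with 100 fragments or more, 14 were higher in Sf-15 only and 21 were lower in ASO only. Another 6 were higher in both, 7 were lower in both, 1 was called in opposite directions and 3 were in neither class. At 1000 fragments or more, 4 were higher in Sf-15 only and 0 were lower in ASO only. Class shares over all single unigenes of the same depth were not computed, so nothing is read from how these counts change with depth. The members of the class lower in ASO only had at most 760 fragments in a library. In the names of the classes, only means that no call was made in the other library. Unigene21140, Unigene19104, Unigene9180, Unigene12070 and Unigene17350, among others of this class, had intervals of Sf-15 to Sf9 below 0. They missed the class lower in both by the limit on size. Unigene7594, of the same class, had that interval above 0.

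Just inside the limit on the difference lay Unigene21763, Unigene2228 and Unigene15710, all at 0.70 and all lower in ASO only. Unigene21763 had 29 fragments in Sf-15, 15 in ASO and 38 in Sf9. Just outside lay Unigene14118 with 64 fragments in Sf-15, 39 in ASO and 39 in Sf9, Unigene13672 with 99 in Sf-15, 65 in ASO and 182 in Sf9, and Unigene16287 (1026 nt) with 11154 in Sf-15, 7532 in ASO and 4717 in Sf9. Unigene16287 has more fragments than any member but Unigene2892, and its values are those of the class higher in both.

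The assembly number in the name was not used by the rule. Blocks of numbers were set after the values were seen, and were not tested. Of the 124 unigenes with 30 fragments or more and a number of 30000 or above, 17 were members (13.7%), and 13 of these 17 were higher in Sf-15 only. The share of members was 1.12% for numbers below 24000 (202 of 18006), 3.13% from 24000 to below 26000 (17 of 543) and 0.307% from 26000 to below 30000 (1 of 326). How many of the 124 unigenes were higher in Sf-15 only was not computed, so nothing is read from the 13. They include Unigene30391, Unigene30392, Unigene30393, Unigene30191, Unigene30568 and Unigene30205. These had 0 to 4 fragments in ASO and in Sf9, and reached the minimum of 30 through Sf-15 alone. The block from 30000 also had the highest share of unigenes with their highest FPKM in Sf-15, 25.0%, against 7.93% below 24000. More of the unigenes in that block, 50.8%, had their highest FPKM in ASO, and 24.2% had it in Sf9. The highest FPKM was in Sf9 for 70.0% of the unigenes from 24000 to below 26000, and in ASO for 81.3% of those from 26000 to below 30000. The order of assembly that gave the numbers is not stated in the sources used here.

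Among the members, 15 had a neighbour with the next or the previous number. Unigene30364 (290 nt; 31 fragments in Sf-15, 14 in ASO and 7 in Sf9) and Unigene30365 (529 nt; 50 in Sf-15, 16 in ASO and 7 in Sf9) were both higher in Sf-15 only. So were Unigene30572 (253 nt; 37 in Sf-15, 19 in ASO and 13 in Sf9) and Unigene30573 (316 nt; 37 in Sf-15, 14 in ASO and 13 in Sf9). Unigene21911 (34 in Sf-15, 13 in ASO and 37 in Sf9) and Unigene21912 (27 in Sf-15, 13 in ASO and 44 in Sf9) were both lower in ASO only.

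Other neighbours were in different classes by small margins. Unigene11935 (17 in Sf-15, 7 in ASO and 33 in Sf9) was lower in ASO only, and Unigene11936 (17 in Sf-15, 9 in ASO and 41 in Sf9) was lower in both. Unigene16044 (39 in Sf-15, 22 in ASO and 40 in Sf9) was lower in ASO only, and Unigene16045 (61 in Sf-15, 36 in ASO and 54 in Sf9) was in neither class. The classes of Unigene11936, Unigene16044, Unigene16045 and, among the pairs above, Unigene30365 changed with totals that left out CL1590. Whether neighbours are pieces of the same transcript was not tested. In 0 cases did a member have the same fragments as another in all libraries.

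**Figure D4:**
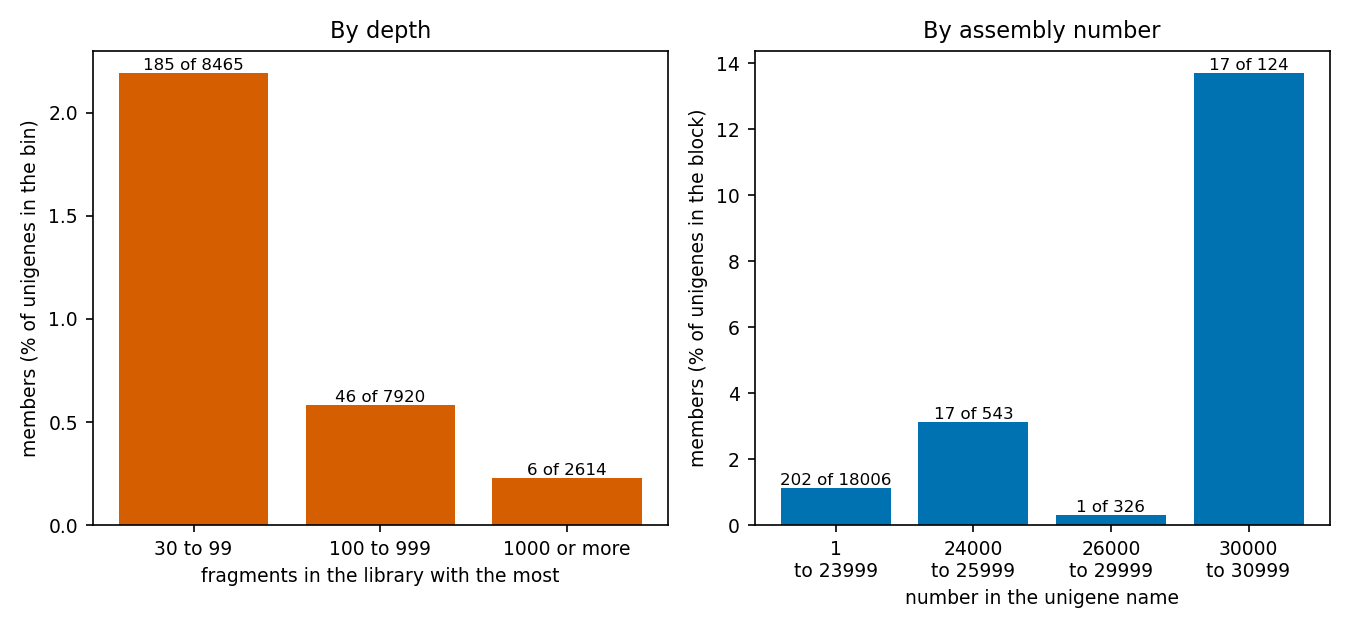
Members as a percentage of the single unigenes with 30 fragments or more, on the left by the fragments of the library with the most and on the right by the number in the unigene name, with members of unigenes above each bar. The share is 2.19% at 30 to 99 fragments and 0.23% at 1000 or more, and it is highest, 13.7%, for numbers of 30000 and above.

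Taken as a sum, the members had 48406 fragments in Sf-15 (0.269% of the library), 22222 in ASO (0.113%) and 36679 in Sf9 (0.187%). Unigene30391 and Unigene2892 together made up a large part of this, and without them the members had 32174 fragments in Sf-15, 17064 in ASO and 23064 in Sf9. The mirrored rule (a minus b of at least 0.7, b under 1 and a over -1.2) took in 2377 single unigenes, 12.5%, so unigenes higher in Sf-15 than in ASO by this size were the rarer kind at the deposited scaling. The median of b minus a over the single unigenes with 30 fragments or more was -0.20, and TMM scaling adds 0.28 to this difference.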

How the data were processed

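RNA of normal, plasmid-transfected and ASO-transfected Sf9 cells was sequenced on an Illumina HiSeq instrument, 1 library each. Whether mRNA was taken by oligo(dT) or by removing rRNA is not stated. The authors removed reads with adaptors and repeated reads, trimmed low-quality ends and assembled unigenes with Trinity, TGICL and Phrap, and the aligner and counting program are not given in the sources used here. The deposited tables, 1 for each of the 3 pairs of libraries, hold raw fragment counts and FPKM values made by the authors. They also hold the authors' log2 ratio, p-value, false discovery rate and direction, which were not used. The tables were joined by name (0 values differed between tables), and unlisted unigenes were taken as 0.

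The members, classes and lists were chosen with earlier results of these data known. The ratios of FPKM were computed after adding 1 FPKM. Intervals are exact (Clopper-Pearson) at 95%, from fragments and library totals. A floor of 3 fragments stood for 0. Intervals and floors cover counting error only, and take each fragment as independent. Fragments from PCR are not independent molecules, so the intervals can be too narrow even for counting error. Named were the 12 members with the largest difference, 5 per class with the largest defining ratio, the 5 with the most fragments, 3 on either side of the limit, those with at least 100 fragments in Sf-15 and 3 or fewer elsewhere, and those with consecutive numbers. Unigene4447, Unigene14924 and the CL contigs were named after their values were seen. The alternatives were other amounts of added FPKM, fragment minimums, limits, intervals and scalings. The calls were also run on simulated counts with counting error only, with changes set in unigenes of at least 100 fragments in Sf9. Most members had fewer fragments, so this checked the calculation and not the members. TMM factors came from edgeR 4.0.16 (R 4.3.3), intervals from scipy 1.17.1 and figures from matplotlib 3.10.9, with tables handled by pandas 2.3.3 and numpy 2.4.6 under Python 3.11.15.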

Additional observations from a re-analysis of the deposited data

How the results depend on the processing

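No paired analysis was possible because only 1 library was made per condition. The number of members (237) depended on the settings of the rule. It was 140 with 2 FPKM added, 867 at a minimum of 10 fragments, 960 with no minimum, 52 at a minimum of 100, 535 at a difference of 0.5 and 77 at a difference of 1. TMM scaling gave 641, median-of-ratios scaling 640 and totals without CL1590 405, with 237, 237 and 233 of the members among them. With 0.5 FPKM added it was 303. Chosen after seeing the data were an interval of Sf-15 to ASO above no difference (223) and TMM scaling with a minimum of 100 fragments (180). At a class limit of 1, 38 members were higher in Sf-15, 99 lower in ASO and 100 in neither class. Members in neither class (25) were 13 without the interval, 88 with the stricter interval of the alternatives, 9 with TMM scaling and 8 with median-of-ratios scaling. With the members held, these scalings gave 85 and 84 higher in Sf-15 and 151 and 154 lower in ASO, and totals without CL1590 gave 89 and 133. Members called in opposite directions (3) were 5 at a class limit of 0.3, 0 at a limit of 1, 7 without the interval, 1 with the stricter interval, 8 with TMM scaling, 9 with median-of-ratios scaling and 5 without CL1590. Of 490 values of named members under 5 settings, 461 moved by less than their counting error, 29 moved by more and 0 called values changed sign. Most members had under 100 fragments, which limits their precision.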

Other observations

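The contigs of CL clusters, which the rule leaves out, met its other conditions in 33 of 7092 cases with 30 fragments or more (0.465%). Of these, 12 were lower in ASO only, 7 were higher in Sf-15 only, 7 were lower in both, 1 was higher in both and 6 were in neither class. CL1676.Contig2 (1263 nt) had the largest difference of the 33, with 148 fragments in Sf-15, 39 in ASO and 52 in Sf9 (exact 95% interval of the log2 ratio of Sf-15 to ASO 1.54 to 2.60). CL1401.Contig1 (1050 nt) had 102 in Sf-15, 41 in ASO and 46 in Sf9, and was likewise higher in Sf-15 only. The most abundant, CL190.Contig1 (385 nt), had 1714 in Sf-15, 1013 in ASO and 3564 in Sf9, and was lower in both. CL2212.Contig1 (857 nt) had 1090 in Sf-15, 665 in ASO and 2391 in Sf9, the same order of the libraries as Unigene2892.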
